A study of Mus musculus with 7 samples.

Results

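Sarcomere and muscle calcium handling genes were followed through the RNA-seq libraries of tumors grown from mouse embryonic fibroblasts (MEFs). The 53 genes, of 46603 in the count files, were chosen by symbol: 11 of the thin filament, 8 myosin light chain and thick filament genes, 15 of the Z-disc and costamere, 14 of excitation-contraction coupling and the calcium store, 3 energy buffering genes and 2 ubiquitin ligases of muscle. They had been picked with the difference between the tumors already known, so that difference is described here and not tested. The 3 NM1 KO libraries came from a tumor of MEFs in which CRISPR/Cas9 had deleted nuclear myosin 1 (NM1), a nuclear isoform of the Myo1c motor. The 4 KO+NM1 libraries came from a tumor of the same KO cells carrying NM1 with HA and V5 tags from a lentivirus, kept under neomycin and taken from single clones. Both kinds of cells had been injected under the skin of the right flank, by the sample descriptions, of female Balb/c nude mice aged 16 weeks, which lack thymus-derived T cells, with 5 mice per group, and the tumors were removed at 30 days by the same descriptions. The paper gives another day and also names the mammary pad as the site. The sample descriptions have 1 tumor per group cut into 4 equal pieces that were homogenized separately, while the study's methods write of tumors in the plural. Replicates are therefore pieces, and the spread between them may hold no difference between mice. Host and graft are both mouse, so reads of host muscle and of tumor cells cannot be told apart, nor can fewer muscle cells and less RNA per cell in these bulk samples.

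A muscle fiber shortens when myosin thick filaments pull on actin thin filaments inside the sarcomere. Calcium released from the sarcoplasmic reticulum binds troponin C, and the troponin and tropomyosin complex then uncovers the actin. Fast and slow fibers build the same machine from different genes: the fast fiber uses its own troponins, light chains, myosin-binding protein C and calsequestrin, and the slow fiber shares many of its isoforms with the heart. Fibroblasts contract with cytoplasmic actins and non-muscle myosins and use little of this set.

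The promoters of 4 members are given first. Acta1 encodes skeletal actin and had the highest level per kilobase of the set in the KO pieces. Ttn encodes titin, the molecular spring of the sarcomere. Casq1 and Casq2 encode the fast and the slow or cardiac calsequestrin, the calcium buffers of the store, and they behaved differently across the tumors. Each sequence is the RefSeq promoter window of 250 bases upstream of the transcription start, on the gene's own strand in GRCm38.p6: chr8:123894776-123895025 (minus) for Acta1, chr2:76982548-76982797 (minus) for Ttn, chr1:172219896-172220145 (minus) for Casq1 and chr3:102086165-102086414 (plus) for Casq2. Capitals mark matches to the E-box CANNTG, which the MyoD family binds, to the MEF2 motif and to the CArG box of serum response factor.
Acta1: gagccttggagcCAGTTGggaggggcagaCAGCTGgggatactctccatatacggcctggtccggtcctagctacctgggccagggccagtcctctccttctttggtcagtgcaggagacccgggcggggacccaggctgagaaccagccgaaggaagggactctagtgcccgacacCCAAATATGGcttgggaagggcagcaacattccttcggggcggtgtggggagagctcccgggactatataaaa
Ttn: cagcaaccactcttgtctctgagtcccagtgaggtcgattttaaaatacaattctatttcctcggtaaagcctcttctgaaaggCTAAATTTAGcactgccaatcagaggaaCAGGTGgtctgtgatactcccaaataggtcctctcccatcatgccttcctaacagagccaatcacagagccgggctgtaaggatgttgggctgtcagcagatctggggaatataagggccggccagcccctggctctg
Casq1: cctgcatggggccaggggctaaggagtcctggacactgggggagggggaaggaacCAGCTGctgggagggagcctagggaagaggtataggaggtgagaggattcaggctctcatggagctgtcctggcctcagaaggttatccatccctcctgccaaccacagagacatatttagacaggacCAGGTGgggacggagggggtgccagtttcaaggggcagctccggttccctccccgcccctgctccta
Casq2: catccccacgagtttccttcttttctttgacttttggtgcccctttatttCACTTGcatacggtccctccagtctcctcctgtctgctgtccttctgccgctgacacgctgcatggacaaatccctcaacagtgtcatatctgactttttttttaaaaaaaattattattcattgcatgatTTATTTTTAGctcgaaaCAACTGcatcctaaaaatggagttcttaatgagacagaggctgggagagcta

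In these windows the Acta1 promoter held 2 E-boxes and a CArG box that starts at position -73. The Ttn promoter held an E-box at -138 and a MEF2 match at -166, and the Casq1 promoter E-boxes at -195 and -67. The promoter of Casq2, a gene that was not called between the tumors, held E-boxes at -200 and -52 and a MEF2 match at -69. RefSeq windows were found for 38 of the 53 members, 48 windows in all, and both strands were searched. An E-box stood in 83.33% of the member windows and in 66.22% of all 32851 windows. A MEF2 match stood in 14.58% of the member windows against 2.919% of all, and a CArG box in 12.5% against 1.467%. Some windows of the same gene overlap, so a site can be counted more than once. By gene, 7 of the 38 members had a MEF2 match and 5 had a CArG box. No base was shared between matches to different motifs. A match is a run of letters and does not show that a factor was bound.

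The libraries held 26527540 to 28326568 counts in KO and 24088309 to 26841529 in KO+NM1, and levels are given as CPM, the reads of a gene scaled to library depth with the TMM method. On that scale the floor of 3 counts was worth 0.109, 0.122, 0.148 and 0.123 CPM in KO+NM1 pieces 01 to 04. Myo1c stood at 312, 288.6 and 306 CPM in KO pieces 01 to 03 and at 437, 407, 406 and 381 CPM in KO+NM1 pieces 01 to 04. The gene count cannot separate the NM1 isoform from the other Myo1c transcripts, so it does not check the deletion. The tumors also differed in markers of other cells. The counts of markers called stand beside 17.1% of all 16887 genes tested that edgeR called higher in KO and 20.3% called lower. All 10 white adipocyte markers were lower in KO (edgeR, adjusted p under 0.05 and at least 2-fold), with a summed level of 118 to 299 CPM in KO and 5006 to 37490 CPM in KO+NM1, and Lep was at 0 in KO piece 01. KO+NM1 piece 01 stood apart with the lowest of those 4 adipocyte sums, and the count of members called and the counts of the further gene lists are given again without it. Of the 8 cardiac markers Nppa was at 0 in all 7 libraries and Myl7 in all 3 KO libraries, while Myh6 and Nkx2-5 were called higher in KO and Ryr2 was called lower. Myh6 and Nkx2-5 passed the count filter only through KO, and Ryr2 only through KO+NM1. The smooth muscle list had 6 of 8 genes lower and none higher, with sums of 109 to 122 CPM in KO and 602 to 1286 CPM in KO+NM1. All 6 endothelial markers were lower in KO (sums of 175 to 195 CPM against 986 to 1408 CPM), as were all 6 nerve and Schwann markers (92.1 to 102 CPM against 203 to 547 CPM) and 3 of 6 mammary epithelium markers (3.66 to 65.5 CPM against 405 to 1730 CPM), with Wap at 0 in all KO libraries. Of the 6 fibroblast markers 2 were lower and none higher. Macrophage markers were higher for 4 of 6 genes. Their sums overlapped, at 1689 to 1919 CPM in KO and 464 to 2224 CPM in KO+NM1, where piece 01 was the highest. Of 5 satellite cell markers the 2 that were tested, Cdh15 and Vcam1, were higher. Cdh15 had 5, 0, 0 and 1 counts in KO+NM1 pieces 01 to 04 and passed the count filter only through KO, so its call is no evidence about the list. The part of these other cells in the results below was not tested.

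The members took 0.461%, 2.86% and 2.32% of all counts in KO pieces 01, 02 and 03. In KO+NM1 pieces 01 to 04 they took 0.0578%, 0.0548%, 0.0409% and 0.0573%. Every KO piece was thus above every KO+NM1 piece, and the KO pieces also differed among themselves, with piece 01 far below the other two. Of the 53 members, 52 had enough counts to enter the edgeR fit, and Tnnc2 did not. Of the 52, 49 were called higher in KO (adjusted p under 0.05 and at least 2-fold) and none lower, beside 17.1% of the 16887 genes tested called higher and 20.3% called lower. The count of 0 lower held at an unadjusted p under 0.05 in edgeR, and DESeq2 called 1 member lower. All 3 KO libraries exceeded all 4 KO+NM1 libraries for 47 of the 52, beside 30.5% of the tested genes. The median log2 fold change of the tested members was 7.998, or 7.70 with the 6 genes that had no read in KO+NM1 set to their lower bound, and the median of all tested genes was -0.002. Without KO+NM1 piece 01, 48 were called higher, 1 was called lower and the median was 7.91. Of all 16617 genes tested without that piece, 3603 were called higher and 4172 lower. These figures follow from how the genes were chosen and are not evidence about the group.

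**Figure D1:**
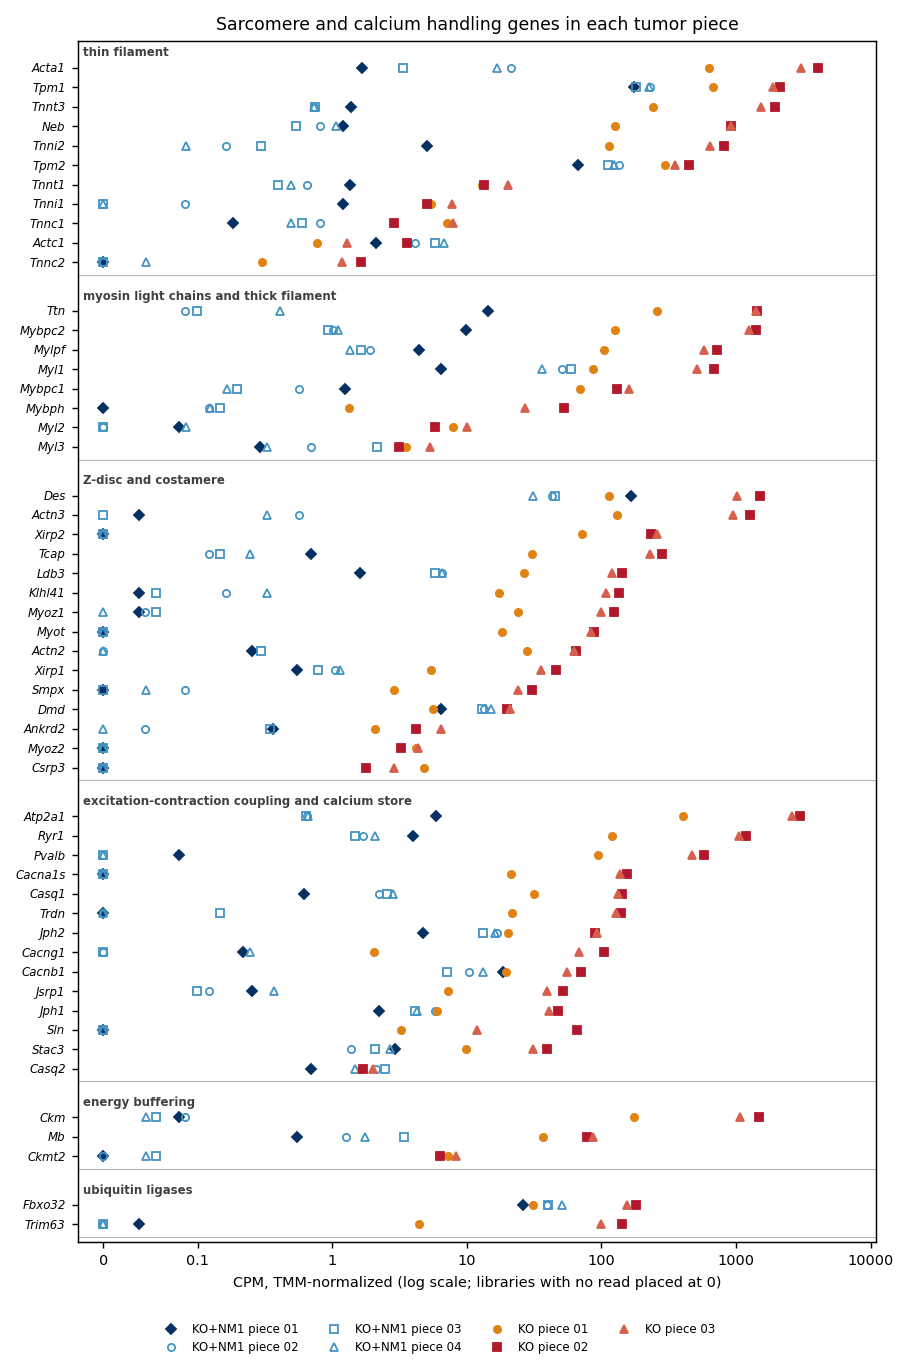
Level of each of the 53 members in each tumor piece, in TMM-normalized CPM on a log axis with libraries without a read drawn at 0, grouped by role and ordered by the KO mean. The filled warm symbols of the KO pieces lie to the right of the blue KO+NM1 symbols for 48 of the 53 genes, and KO piece 01 (orange circle) is the lowest KO piece for 46.

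The thin filament had 11 members, of which 9 were called higher in KO. Acta1, the actin of skeletal muscle, was at 626, 4050 and 3055 CPM in KO pieces 01 to 03 and at 1.68, 21.3, 3.35 and 16.6 CPM in KO+NM1 pieces 01 to 04. The log2 fold change was 7.91 (SE 0.96). Neb, whose giant protein lines the thin filament, was at 127, 926 and 916.5 CPM in KO and between 0.543 and 1.20 CPM in KO+NM1. Neither gene overlapped between the tumors, and in both KO piece 01 lay far below KO pieces 02 and 03. The tropomyosins behaved differently: their level in KO+NM1 was far above the floor, and they rose less than Acta1 and Neb. Tpm1, which covers the actin grooves in fast muscle and also makes fibroblast isoforms, was at 674.5, 2138 and 1871 CPM in KO and at 176, 230.2, 181 and 225 CPM in KO+NM1, a log2 fold change of 2.94 (SE 0.39). Tpm2 was at 296, 447 and 349 CPM against 67.3, 135, 111 and 124 CPM, a log2 fold change of 1.74 (SE 0.27).

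Troponin T ties the complex to tropomyosin, and its fast and slow genes gave the clearest pair of the thin filament. The fast Tnnt3 was at 243.5, 1965 and 1524 CPM in KO and at 1.38, 0.731, 0.740 and 0.739 CPM in KO+NM1, a log2 fold change of 10.42 (SE 0.67). The slow Tnnt1 was at 13.1, 13.5 and 20.3 CPM in KO and at 1.35, 0.650, 0.395 and 0.493 CPM in KO+NM1, a log2 fold change of 4.42 (SE 0.45). Neither gene overlapped between the tumors, but the fast gene varied 8.07-fold over the KO pieces and the slow gene 1.56-fold. Troponin I, which holds the filament off until calcium arrives, had the same shape. Its fast gene Tnni2 was at 114, 818 and 641 CPM in KO and at 5.03, 0.163, 0.296 and 0.0821 CPM in KO+NM1. Its slow gene Tnni1 was at 5.46, 5.10 and 7.81 CPM in KO and at 1.20, 0.0812, 0 and 0 CPM in KO+NM1, with a log2 fold change of 4.19 (SE 1.31). In both, KO+NM1 piece 01 was the highest of its tumor. Without that piece the log2 fold change went from 8.53 to 11.40 for Tnni2 and from 4.19 to 7.40 for Tnni1. Leaving out any of the other 6 libraries ended the call of Tnni1, at log2 fold changes of 3.78 to 4.20.

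Troponin C, the calcium sensor, went against that order. The slow and cardiac Tnnc1 was at 7.16, 2.88 and 7.85 CPM in KO and at 0.182, 0.812, 0.592 and 0.493 CPM in KO+NM1. The fast Tnnc2 was at only 0.2995, 1.63 and 1.19 CPM in KO, with 1 read in 1 of the 4 KO+NM1 libraries, and its pooled ratio was 99.8 (95% interval 17.5 to 3982, counting error only). Of the annotated exon bases of Tnnc2, 74% are also exon of Ube2c on the opposite strand. Reads in such overlaps may be left uncounted, and the strand option of the counting is not stated. The cardiac actin gene Actc1, also expressed in developing muscle, was 1 of 3 tested members not called. It was at 0.766, 3.58 and 1.29 CPM in KO and at 2.11, 4.14, 5.82 and 6.81 CPM in KO+NM1, a log2 fold change of -1.33 (SE 0.62). The 2 tumors overlapped, and reads may be split between the closely similar Acta1 and Actc1. DESeq2 and the fits without KO piece 02 or without KO+NM1 piece 01 called it lower in KO, at -1.44, -2.32 and -1.70.

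All 8 myosin light chain and thick filament members were called higher in KO and none overlapped. Mylpf, the regulatory light chain of fast fibers, was at 104, 728 and 577 CPM in KO and at 4.44, 1.91, 1.63 and 1.35 CPM in KO+NM1. Its slow counterpart Myl2 was at 7.89, 5.80 and 10.1 CPM in KO, with at most 2 reads in a KO+NM1 library, and its pooled ratio was 192.5 (95% interval 74.8 to 708). Both light chains were near the floor or within a few CPM in KO+NM1, and the fast one alone was several-fold higher in KO pieces 02 and 03 than in piece 01. The essential light chain of fast fibers, Myl1, was at 86.5, 686 and 512 CPM in KO and at 6.41, 51.3, 60.0 and 36.0 CPM in KO+NM1, so that the lowest KO and the highest KO+NM1 piece differed by less than 2-fold. The slow essential light chain Myl3 was at 3.53, 3.12 and 5.34 CPM against 0.291, 0.691, 2.17 and 0.328 CPM. Their log2 fold changes were 3.48 (SE 0.85) and 2.21 (SE 0.73), and both calls were lost without KO piece 02 (2.84 and 2.23) and without KO piece 03 (3.21 and 1.82). The call of Myl3 was also lost without KO piece 01 (2.17), KO+NM1 piece 02 (2.10) or KO+NM1 piece 04 (1.92).

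Myosin-binding protein C, which braces the thick filament, again split into a fast and a slow gene. The fast Mybpc2 was at 127, 1415 and 1239 CPM in KO and at 9.91, 1.02, 0.937 and 1.11 CPM in KO+NM1. Among all members with at least 10 CPM in every KO piece, Mybpc2 was the least even over those pieces after Des. The slow Mybpc1 was at 68.9, 131.5 and 160.2 CPM in KO and at 1.24, 0.569, 0.197 and 0.164 CPM in KO+NM1. Ttn, whose protein runs from the Z-disc to the middle of the sarcomere, was at 259.9, 1440 and 1413 CPM in KO and at 14.5, 0.0812, 0.0987 and 0.411 CPM in KO+NM1. The single KO+NM1 piece with more than 1 CPM of Ttn was piece 01, and without it the log2 fold change went from 8.09 (SE 1.596) to 12.18. Mybph, a relative of the binding proteins with 49.9% of its exon bases shared with Adora1, had the steepest step inside the KO tumor of this role, from 1.33 CPM in piece 01 to 53.1 and 27.2 CPM in pieces 02 and 03.

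Of the 15 Z-disc and costamere members, 14 were called higher in KO. The alpha-actinins anchor thin filaments in the Z-disc, Actn3 in the fastest fibers and Actn2 in all fibers and the heart. Actn3 was at 131, 1277 and 942.5 CPM in KO and at 0.0364, 0.569, 0 and 0.328 CPM in KO+NM1. Actn2 was at 27.9, 65.0 and 62.4 CPM in KO and at 0.255, 0, 0.296 and 0 CPM in KO+NM1. Both were near the floor in the KO+NM1 tumor, while Actn3 differed 9.73-fold between KO pieces 02 and 01 and Actn2 2.33-fold. Des, the intermediate filament that links Z-discs and is also present in smooth muscle, was called although the tumors overlapped: it was at 114.5, 1513 and 1009 CPM in KO and at 165.6, 43.2, 44.9 and 31.1 CPM in KO+NM1. KO+NM1 piece 01 exceeded KO piece 01, and the log2 fold change of Des was 3.63 (SE 0.90) with all pieces and 4.34 without KO+NM1 piece 01. Des was no longer called when KO piece 02 (2.87), KO+NM1 piece 02 (3.44) or KO piece 03 (3.41) was left out. The myozenins bind calcineurin at the Z-disc. Their fast gene Myoz1 was at 23.9, 123.6 and 99.7 CPM in KO with at most 1 read in a KO+NM1 library, and the slow Myoz2 was at 4.19, 3.26 and 4.35 CPM in KO with no read in KO+NM1, at least 31.4-fold higher. A few more Z-disc genes also had no read in any KO+NM1 library: Xirp2, at least 1497-fold higher in KO, Myot, at least 504-fold, and Csrp3, at least 25.1-fold, each against a floor of 3 counts per library. Csrp3, a muscle LIM protein of slow fibers and heart, was the single member that was highest in KO piece 01, at 4.79 CPM beside 1.77 and 2.90 CPM. Dmd, the dystrophin that ties the costamere to the membrane, was not called: it was at 5.63, 19.9 and 21.1 CPM in KO and at 6.48, 13.5, 13.0 and 15.2 CPM in KO+NM1, a log2 fold change of 0.37 (SE 0.50). The other Z-disc members, Xirp1, Tcap, Ldb3, Ankrd2, Smpx and Klhl41, were called higher in KO without overlap, with KO means far below those of Actn3 and Des.

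Excitation-contraction coupling opens the calcium store when the membrane is depolarized, and 13 of its 14 members were called higher in KO. Cacna1s, the voltage sensor, was at 21.4, 154 and 137 CPM in KO with no read in KO+NM1, at least 829.7-fold higher, and Ryr1, the release channel it opens, was at 120.0, 1196 and 1055 CPM in KO and at 3.97, 1.71, 1.48 and 2.09 CPM in KO+NM1. Atp2a1, the fast-fiber pump that returns calcium to the store, was at 403, 2985 and 2610 CPM in KO and at 5.86, 0.650, 0.641 and 0.657 CPM in KO+NM1. The sensor, the channel and the pump all stood 6.40-fold to 9.97-fold higher in KO pieces 02 and 03 than in piece 01. Exon bases shared with a gene on the other strand make up 21.9% of Atp2a1, 20% of Cacna1s and 4.2% of Ryr1. The slow and cardiac pump Atp2a2, not a member and expressed in most cells, was at 326, 293 and 343 CPM in KO and at 120, 171, 208 and 208 CPM in KO+NM1. Its log2 fold change of 0.86 (SE 0.22, edgeR adjusted p = 0.0147) fell short of 2-fold, and reached 1.06 when scaled by library size alone. Casq1 was at 31.8, 142 and 132 CPM in KO and at 0.619, 2.23, 2.57 and 2.83 CPM in KO+NM1. Casq2 was at 1.63, 1.70 and 2.01 CPM in KO and at 0.692, 2.11, 2.47 and 1.48 CPM in KO+NM1, a log2 fold change of 0.08 (SE 0.45). So the fast calsequestrin was higher in every KO piece and the slow one overlapped at a low level in both tumors.

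Pvalb, the soluble calcium buffer of fast fibers, was at 94.1, 577 and 470 CPM in KO and had 2 reads in KO+NM1 piece 01 and none in the other 3 pieces. Sln, an inhibitor of the calcium pump, was at 3.23, 66.3 and 12.0 CPM in KO with no read in KO+NM1. It set KO piece 02 apart from piece 03 more than any other coupling gene, with 20.5-fold (95% interval 16.7 to 25.5) and 3.72-fold (2.96 to 4.70) the level of piece 01. Cacng1, an auxiliary subunit of the voltage sensor, had the largest step of all members, at 2.03, 105 and 67.8 CPM, or 51.6-fold (40.0 to 67.6) and 33.4-fold (25.9 to 43.8) the level of piece 01. Cacnb1, Jph1, Jph2 and Stac3 had smaller log2 fold changes of 1.98, 2.95, 2.42 and 3.56 and did not overlap. Cacnb1 barely separated, at 19.7 CPM in KO piece 01 and 18.7 CPM in KO+NM1 piece 01. Trdn, which anchors calsequestrin to the channel, had reads in 1 KO+NM1 library only, and Jsrp1, a protein of the triad, reached at most 0.369 CPM in that tumor.

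Energy buffering and muscle wasting genes completed the set. Ckm, the creatine kinase of muscle, was at 174, 1488 and 1077 CPM in KO with 1 or 2 reads in each KO+NM1 library, and its pooled ratio was 14590 (95% interval 6705 to 39770). Mb, the oxygen store of oxidative fibers, was at 36.7, 77.7 and 86.9 CPM in KO and at 0.546, 1.26, 3.40 and 1.77 CPM in KO+NM1. Ckmt2, the mitochondrial creatine kinase of slow muscle and heart, was at 7.22, 6.35 and 8.34 CPM in KO and nearly even over the KO pieces. Of the muscle ubiquitin ligases, Trim63 was at 4.39, 142 and 99.0 CPM in KO with a single read in KO+NM1. Fbxo32 was at 31.3, 180.9 and 154 CPM in KO and at 26.3, 39.6, 40.2 and 51.3 CPM in KO+NM1, so the tumors overlapped, and its call (log2 fold change 1.64, SE 0.55) was lost without any 1 library other than KO piece 01, at 1.12 to 1.77.

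Levels of different genes were compared only after division by exon length, as CPM per kilobase in the KO libraries. The KO means were 1678 for Acta1, 786 for Tnnt3, 575 for Atp2a1, 442 for Mylpf, 365 for Pvalb and 350.3 for Tnni2, with SDs over the 3 pieces of 1147, 565, 401, 306.5, 243.6 and 244.8. The SDs hold a difference between pieces that these genes share, since each was highest in KO piece 02 and lowest in KO piece 01. The order of the 6 genes was also the same in all 3 KO pieces. In each of 7 of the 8 fast and slow pairs the fast gene was above the slow gene in all 3 KO libraries. The difference on the log2 scale of CPM per kilobase with 0.1 added was 6.33 ± 1.51 (SD, n = 3) for Tnnt3 minus Tnnt1, 7.20 ± 1.5 for Tnni2 minus Tnni1, 6.35 ± 1.64 for Mylpf minus Myl2 and 6.23 ± 1.59 for Myl1 minus Myl3. It was smaller for Mybpc2 minus Mybpc1, at 2.74 ± 1.35, and was 4.83 ± 1.40 for Myoz1 minus Myoz2 and 5.85 ± 1.13 for Casq1 minus Casq2. Tnnc2 minus Tnnc1 was -2.19 ± 1.73, the exception, with the overlap of Tnnc2 and Ube2c named above.

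The mean of the 8 differences was 3.06, 5.94 and 5.01 in KO pieces 01, 02 and 03, or 4.67 ± 1.47 (SD, n = 3), and 5.65 ± 1.44 without the troponin C pair. In KO+NM1 it was 1.76, 1.22, 1.34 and 1.46, where most of these genes were near the floor and the added 0.1 weighs on the value. The excess of fast over slow genes was thus widest in KO piece 02 and narrowest in piece 01. Among other isoforms, Actn3 minus Actn2 was 3.86 ± 1.10 and Acta1 minus Actc1 was 10.25 ± 0.83 in KO.

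**Figure D2:**
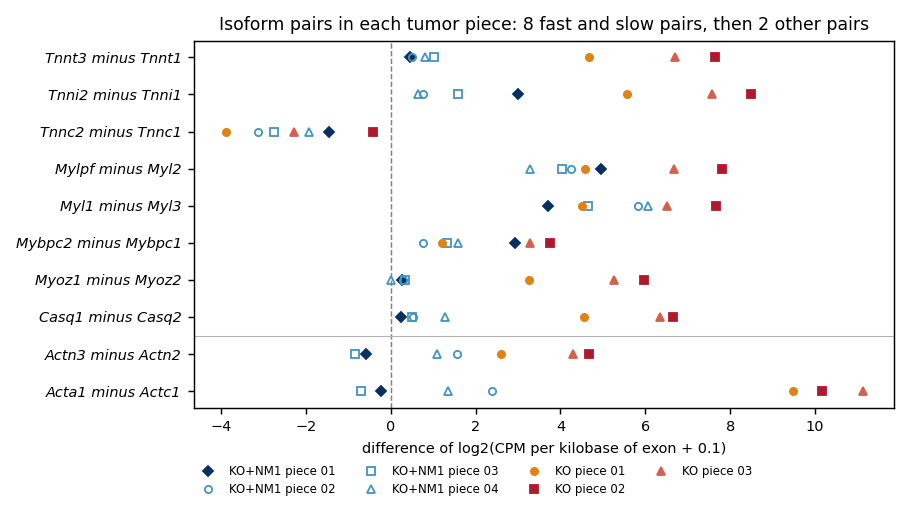
Difference of log2(CPM per kilobase of exon + 0.1) between the genes of each pair, with 1 symbol for each tumor piece, for 8 fast and slow pairs above the line and 2 other pairs below it. In KO the fast gene is higher for every pair except Tnnc2 and Tnnc1, and KO piece 01 (orange circle) has the smallest value of the KO pieces in all 10 pairs, while many KO+NM1 values come from few reads.

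The KO pieces differed more in the fast than in the slow genes. Each piece is a single library, so the ratios between pieces carry exact intervals for counting error and no test. KO piece 01 was the lowest KO piece for 45 of the 52 tested members, beside 35.8% of all tested genes. KO piece 02 was at least 2-fold above piece 01 for 40 of the 52, beside 10.8%, and KO piece 03 for 41, beside 8.78%. The median member differed 5.54-fold between its highest and lowest KO piece, and the median tested gene 1.27-fold. For the 8 fast genes of the pairs the ratio of piece 02 to piece 01 ran from 4.47 to 11.1 (median 7.09) and that of piece 03 to piece 01 from 3.96 to 9.75 (median 5.58), and every interval lay above 1. For the 8 slow genes the ratios were 0.403 to 1.91 (median 0.910) and 1.04 to 2.32 (median 1.36). The ranges of the fast and the slow genes did not overlap in either ratio.

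The slow genes were less steep than the fast genes, but not all were flat. For piece 02 over piece 01, the interval lay above 1 for 1 of the 8 slow genes and below 1 for 2. For piece 03 it lay above 1 for 5 and below 1 for 0. Tnnt1 had ratios of 1.04 (95% interval 0.899 to 1.20) for piece 02 and 1.56 (1.37 to 1.77) for piece 03, and Casq2 had 1.04 (0.687 to 1.58) and 1.23 (0.833 to 1.84). Tnnc1 at 0.403 (0.309 to 0.521) and Myl2 at 0.735 (0.599 to 0.900) were lower in piece 02 than in piece 01. Mybpc1 was the slow gene with the largest ratios, at 1.91 (1.81 to 2.01) and 2.32 (2.21 to 2.45). The energy buffering genes fell on both sides, with Ckm at 8.57 and 6.20 and the slow-fiber Ckmt2 at 0.879 and 1.16. In the same KO pieces the summed white adipocyte markers were 118, 299 and 170 CPM and the summed cardiac markers 53.6, 49.4 and 54.2 CPM, and their part in the piece differences was not tested.

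**Figure D3:**
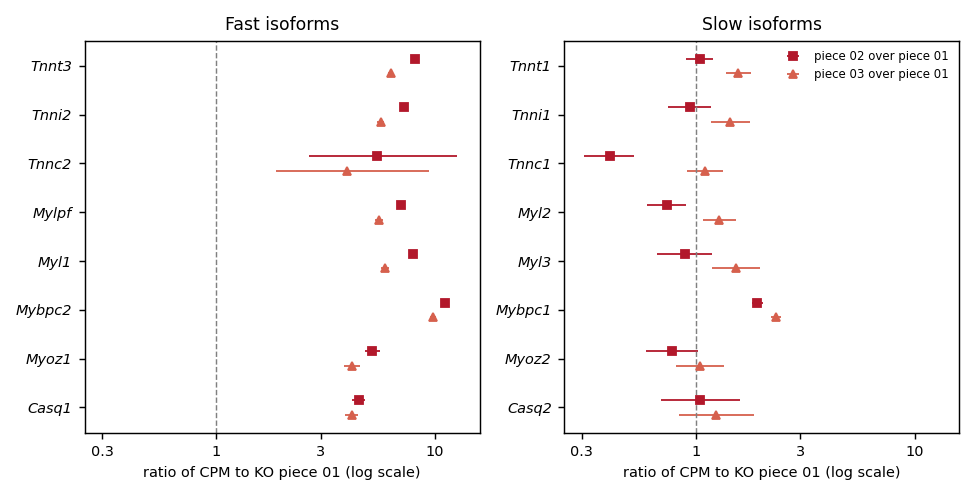
Ratio of the CPM of KO piece 02 (squares) and KO piece 03 (triangles) to that of KO piece 01 on a log axis, for the fast genes of the 8 pairs (left) and the slow genes (right), with bars for the exact 95% interval of counting error, hidden where smaller than the symbol. All fast genes lie at 3.96 or more and all slow genes at 2.32 or less.

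Genes outside the 53 were described from 4 further lists, also drawn up with earlier results known. For 3 of them, all but the first, leaving out KO+NM1 piece 01 changed neither the number of genes called higher nor the number called lower. The counts of each list stand beside 17.1% of all tested genes called higher and 20.3% called lower. Some genes, such as Myh4, Trim54, Myod1 and Ampd1, passed the count filter only through KO, so their calls are no evidence about the lists. Of 48 other sarcomere and calcium handling genes, 47 were tested, and 36 were higher, 1 was lower and 10 were not called by edgeR. The median log2 fold change was 4.57, or 4.54 with genes without a KO+NM1 read at their bound. Myh4, the heavy chain of the fastest fibers, was at 656, 7994 and 6500 CPM in KO and had at most 2 reads in a KO+NM1 library. Trim54, a ubiquitin ligase of the sarcomere, was at 4.89, 46.9 and 37.4 CPM with no read in KO+NM1. The lower gene was Pln, which restrains the slow and cardiac pump, at 0.166, 0.590 and 0.824 CPM in KO and at 1.35, 5.00, 3.70 and 2.92 CPM in KO+NM1 (log2 fold change -2.61, SE 0.63, edgeR adjusted p = 0.0161). Without KO+NM1 piece 01, 36 genes of this list were higher and 3 lower, beside 3603 higher and 4172 lower of all 16617 genes tested. The paralogs Tnnt2 (0.92, SE 0.60, adjusted p = 0.239) and Tpm3 (0.44, SE 0.39, adjusted p = 0.382) were not called by edgeR.

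Among the heavy chains, Myh4 was 12.2-fold and 9.90-fold above piece 01 in KO pieces 02 and 03. Myh1 and Myh2, of the other fast fibers, were at 1.503-fold and 2.19-fold, and at 2.13-fold and 2.55-fold the level of piece 01. These ratios lay below those of all 8 fast genes of the pairs, and those of Myh1 lay within the range of the slow genes. Myh7, the slow heavy chain, was at 36.0, 25.4 and 52.6 CPM.

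Non-muscle relatives of the members had a smaller median change than the members. Of 22 such genes, 5 were higher, 2 were lower and 15 were not called by edgeR, beside 17.1% of all tested genes higher and 20.3% lower. Their median log2 fold change was -0.05, close to that of all tested genes. Without any 1 of the KO pieces 01, 02 or 03 the number higher was 3. Myh10, a non-muscle myosin, rose by 3.74 (SE 0.32, edgeR adjusted p = 0.000476) and Tpm4 by 1.25 (SE 0.24, adjusted p = 0.00468 by edgeR). Myl9, a light chain of smooth muscle and stroma, was lower at -3.64 (SE 0.32, edgeR adjusted p = 0.00061), beside the lower smooth muscle markers, and the store channel Itpr2 was lower at -1.79 (SE 0.29, edgeR adjusted p = 0.00334). Actb, the cytoplasmic actin, was at 3189, 3117 and 3393 CPM in KO and at 6204, 1873, 1520 and 1728 CPM in KO+NM1 and was not called.

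Of 14 genes of developing muscle, 7 were tested, 6 were higher in KO and none lower by edgeR, with a median log2 fold change of 7.24, or 4.38 with genes without a KO+NM1 read at their bound. Of the 6, Myh3, Myh8, Chrna1, Myod1 and Cdh15 had at most 8 counts in any KO+NM1 library and passed the count filter only through KO. Their calls are therefore no evidence about the list. Myod1, a regulator of myogenesis, was at 0.599, 4.69 and 2.54 CPM in KO and had no read in KO+NM1, at least 20.8-fold higher. Chrna1, the acetylcholine receptor subunit of the muscle membrane, was at 3.69, 39.5 and 27.0 CPM in KO and at most 0.205 CPM in KO+NM1 (log2 fold change 8.26, SE 1.22, edgeR adjusted p = 0.0019). Of the genes this list shares with the satellite cell markers, Pax7 and Myf5 reached at most 0.396 CPM in any library. Cdh15 was at 1.37, 9.09 and 6.99 CPM in KO and at 0.182, 0, 0 and 0.0411 CPM in KO+NM1 and was called higher.

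Muscle energy enzymes were mixed: of 15 genes 9 were higher, 4 lower and 2 not called by edgeR, with a median of 2.05. Ampd1, the AMP deaminase of fast muscle, was at 13.0, 131.7 and 112 CPM in KO with 2 reads in KO+NM1 piece 01 and none in the other pieces. Cox6a2, a muscle and heart subunit of cytochrome oxidase, rose by 6.13 (SE 1.05, edgeR adjusted p = 0.00493). The glycerol phosphate enzyme Gpd1, which fat also expresses strongly, was lower at -6.44 (SE 0.75, edgeR adjusted p = 0.00219). Cox8b, an oxidase subunit of muscle and brown fat, was lower at -4.34 (SE 0.80, edgeR adjusted p = 0.00872). Both lower genes were nonetheless higher in KO pieces 02 and 03 than in KO piece 01, Gpd1 by 3.71-fold and 3.12-fold and Cox8b by 4.59-fold and 4.36-fold, beside the adipocyte sums given above.

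**Figure D4:**
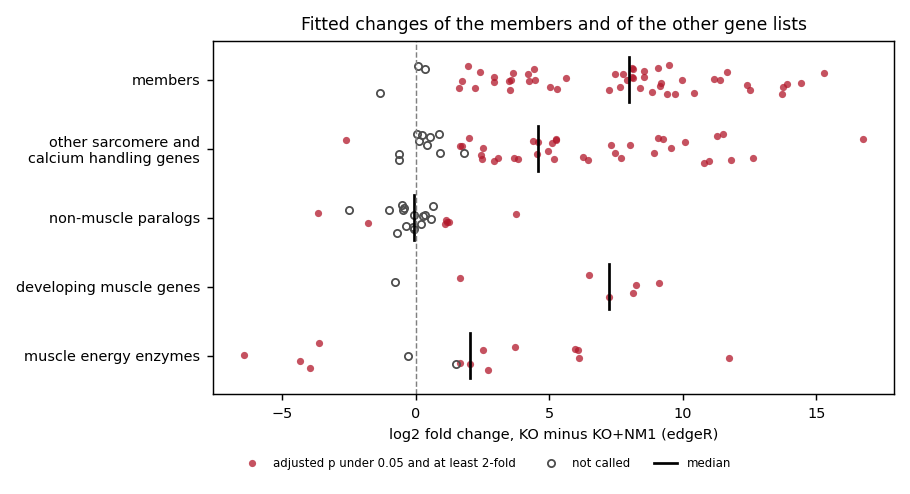
Fitted log2 fold change, KO minus KO+NM1, of each tested gene of the members and of the 4 further lists, with genes called at an adjusted p under 0.05 and at least 2-fold as filled points, the others as open points, and a bar at each median. The members and the other sarcomere genes have medians of 7.998 and 4.57, and the non-muscle paralogs center on 0.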

How the data were processed

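RNA-seq libraries (NEBNext Ultra II, NextSeq) were made from 3 KO and 4 KO+NM1 tumor pieces. Per the labels and methods, the authors used Trimmomatic 0.36 for trimming, HISAT2 2.0.4 for alignment to GRCm38 and SAMtools 0.1.19 for sorting, and deposited raw HTSeq read counts per Ensembl gene; the annotation release and strand option are not given in the sources used here. Symbols came from GENCODE M21 (46091 of 46603 genes). Genes kept by filterByExpr (minimum count 10) were compared by the quasi-likelihood test of edgeR 4.0.16 with TMM scaling and Benjamini-Hochberg adjustment over 16887 genes (R 4.3.3), which was checked on simulated counts. DESeq2 1.42.0 was an alternative. A gene was called at an adjusted p under 0.05 and at least 2-fold. P-values measure the spread between pieces, here a biological coefficient of variation of 46.7%. The chi-square per degree of freedom between pieces of a tumor was 35.2 to 687, so no library repeated another. Ratios of 2 libraries, and pooled ratios where a group had few reads, carry exact conditional binomial 95% intervals, which cover counting error only. With all KO+NM1 libraries at 0, the fold was computed against the mean CPM of 3 counts. Levels per kilobase used the union of exons and a pseudocount of 0.1.

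The members and lists were chosen with earlier results of these data known. The named genes were both genes of each isoform pair, the 2 highest members of each role, members not called or overlapping, the 2 most and 2 least even over KO pieces at 10 CPM or more, in each list the 2 called genes with the largest rise and the 2 with the largest fall at 1 CPM or more, Myo1c, Atp2a2, Tnnt2 and Tpm3. Genes named outside that rule were chosen after their values were seen. Proteins and 15 promoters were not analysed here.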

Additional observations from a re-analysis of the deposited data

Results flagged for a closer look

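Among the 4 KO+NM1 pieces, a sample was taken as far from the others where its gap to the nearest value, as a share of the range, exceeded Dixon's 95% critical value. Of 33 members with at least 10 counts in a KO+NM1 library, 8 met this, and in all 8 the sample was KO+NM1 piece 01. Some passed the count filter only through that piece, such as Tnni1 with 33, 2, 0 and 0 counts in pieces 01 to 04. The members also come from the same 4 libraries and are not independent. The 1.65 that 1 in 20 would give is therefore no yardstick for these 8. That piece was the highest for Atp2a1 (ratio 0.997), Tnnt3 (0.987), Mybpc2 (0.981), Ttn (0.977), Tnni2 (0.957), Tnni1 (0.932) and Des (0.897), and the lowest for Ldb3 (0.837). The levels remained small beside KO for most of them: Atp2a1 was at 5.86 CPM in that piece and 403 CPM in the lowest KO piece. The white adipocyte markers summed to 5006 CPM there and to 27150 to 37490 CPM in the other 3 pieces, and their part in these values was not tested.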

How the results depend on the processing

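Each main value was compared again under each alternative. Of these comparisons, 162 kept their direction and stayed within 1.5 times or the spread between replicates, and 12 did not. Among the comparisons of the remaining values, 640 stayed the same, 32 were weaker, 4 were stronger and 7 were reversed. With at least 10 counts in every library, which leaves out the genes with few KO+NM1 reads, 20 of 23 members tested were higher (median log2 fold change 3.58), as were 13 other sarcomere and calcium handling genes (0 lower) and 1 gene of developing muscle. Of all 13498 genes tested under that filter, 1969 were called higher and 2477 lower. DESeq2's Wald test called 1 member lower. Leaving out a replicate gave 0 to 1 member lower and 42 to 48 higher, 3 to 5 non-muscle paralogs higher, and 1 to 3 other sarcomere genes lower. Over all 16547 to 17411 genes tested, those fits called 2174 to 3603 higher and 2811 to 4172 lower. Casq2 changed sign with DESeq2 size factors (-0.029), at least 1 count (-0.023) and the Wald test (-0.025), and without 1 replicate it ranged from -0.306 to 0.301, while Dmd ranged from -0.032 to 0.651. Scaling by library size alone moved the median of all genes from -0.002 to 0.17 and DESeq2 size factors moved it to -0.10, against a member median of 8.10 and 7.89. The same-numbered pieces correlated at 0.0802, 0.102 and -0.0165, and 3 of 6 samples correlated best with their own number, so the numbers do not pair them; with a replicate block 42 members were higher, 0 lower, and the calls of Tnni1, Myl3, Ttn, Des, Fbxo32 and Cox6a2 were lost. The block called 2437 genes higher and 2493 lower, against 2882 and 3424. Below the floor of 3 counts the depth does not separate a low level from none.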
